A study of Homo sapiens with 15 samples.

Results

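Respiratory chain assembly factors are proteins that help to build the complexes of mitochondrial respiration, most of them without staying in the finished complex. The 49 genes described here come from a list of such factors, sorted by the complex that each one builds. Of these, 48 had an array probe matched to a gene symbol through its RefSeq accession, out of 19483 genes named in the same way. A factor was tested where a probe was well above background on at least 6 of 15 arrays, and the brightest such probe stood for the gene. In all, 46 factors were tested, COX18 and ATPAF1 were below that limit (well above background on 1 and 0 arrays), and TMEM70 was not analysed here.

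Complexes I, III and IV pump protons out of the mitochondrial matrix as electrons pass to oxygen, complex II feeds in electrons from succinate, and ATP synthase uses the proton gradient to make ATP. The complexes join several subunits each, in all but complex II some of them encoded in mitochondrial DNA, and complexes I to IV carry cofactors such as haem, copper or iron-sulphur clusters. Assembly factors hold intermediates, insert membrane proteins and deliver cofactors, and inherited loss of many of them causes a deficiency of the complex concerned.

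The samples were PE/CA-PJ41 cells, an established human oral squamous carcinoma line, kept for 24 h in supplemented medium before RNA extraction. Cells labelled CYGB+ carried the human cytoglobin cDNA in the pCMV6-Neo plasmid, with stable clones picked by cloning rings in G418, and NCE cells are labelled as carrying the empty vector. Elsewhere the study calls this control un-transfected, so transfection and G418 selection may differ between the groups too. The comparison asks how transcript levels differ with forced expression of cytoglobin, a haem-containing globin. Each group had 3 biological replicates, with 3 array repeats each for NCE and 2 each for CYGB+, which gives 9 and 6 arrays. The study's methods describe the CYGB+ cells as 1 clone, so group and clone cannot be told apart. The labels do not say whether biological replicates were separate cultures, so p-values measure only the spread between these samples. All levels are log2 normalised green intensities, averaged over the array repeats of a biological replicate, and differences are CYGB+ minus NCE on the log2 scale. Between 53.8% and 61.3% of the spots on an array were well above background, and the 3 biological replicates of each group limit the precision.

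The probe for CYGB did not separate the groups. Its level was 11.87, 12.16 and 11.94 in NCE replicates 1 to 3, and 11.36, 12.42 and 11.96 in CYGB+ replicates 1 to 3. The probe was well above background on all 15 arrays, those of NCE included, and the study describes the host line as without cytoglobin expression. The groups overlapped, and the difference was −0.07 ± 0.25 (SE, n = 3 and 3; limma adjusted p = 0.879). Where this probe lies relative to the introduced cDNA is not given in the sources used here, so it checks nothing about the labels. Every direction below is therefore between arrays labelled CYGB+ and arrays labelled NCE.

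The squamous markers KRT5, KRT14, KRT6A, TP63, CDH1, DSG3 and SFN, all 7 of those examined, were well above background on all 15 arrays. KRT6A, a keratin of stratified epithelium, was lower in the arrays labelled CYGB+ (difference −0.51; limma adjusted p = 0.0266), and the other 6 were not called. KRT14, also a keratin, was at 12.62, 12.67 and 12.21 in NCE and at 13.23, 13.61 and 12.82 in CYGB+, without overlap (difference 0.72; 0.0798). Of the 7 differences, 4 lay above 0. The KRT6A call was lost without NCE replicate 2 (0.112), NCE replicate 3 (0.111) or CYGB+ replicate 3 (0.0723), and the difference was −0.0019 with slide in the fit. It was also lost with the processed signal (0.13), 75th percentile scaling (0.0873), the deposited table (0.172) and the methods' t-test (0.0776). Of the fibroblast markers, COL1A2, a collagen chain, was lower (difference −1.33; limma adjusted p = 0.0032). It was at −2.54 with the processed signal, at −1.88 with an offset of 10 and at −1.53 with slide in the fit, called in all 3. COL1A1 was not called (0.10), DCN was well above background on 1 array, and LUM and PDGFRB were so on 0. Summed over these 5 probes, the normalised intensity was 538.8, 491 and 495.1 in NCE replicates 1 to 3 and 383.2, 382 and 359.2 in CYGB+ replicates 1 to 3. COL1A2 alone makes this difference, as the other 4 probes were at 0.10 (COL1A1), 0.01 (DCN), 0.03 (LUM) and −0.06 (PDGFRB). Of the immune markers, CD68 was not called (0.21), and PTPRC and CD3E were well above background on 5 and 3 arrays. The squamous probes summed to 58536 to 71611 over the 6 replicates. The part of these markers in the results below was not tested. In bulk RNA, fewer cells of a kind and less RNA per cell cannot be told apart.

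The arrays lay on 2 slides. Slide 1 held 8 of the 9 NCE arrays, and slide 2 held the third array repeat of NCE replicate 1 with all 6 CYGB+ arrays. Slide and group were thus almost the same split, and values with slide in the fit are given after the results for each complex. Some arrays also stood apart from the rest. The first array repeat of CYGB+ replicate 1 had a mean correlation of 0.933 with the other arrays, followed by 0.967 for the second repeat of NCE replicate 3 and 0.971 for the second repeat of CYGB+ replicate 3, and the other 12 arrays were at 0.976 to 0.981.

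In the arrays labelled CYGB+, 4 assembly factors were higher than in NCE and 5 were lower, at a limma adjusted p below 0.05 over all 22328 probes tested. SDHAF3, UQCC3, COA4 and ATPAF2 were higher, by 1.41-fold (SDHAF3) to 1.55-fold (COA4). NUBPL, UQCC1, NDUFAF6, OXA1L and NDUFAF1 were lower, by 1.28-fold (NDUFAF1) to 1.71-fold (NUBPL). These 9 are 19.6% of the factors tested. Among the brightest probes of all 12885 named genes tested, 13.2% were called, 6.21% higher and 6.96% lower. Among all probes tested, 10.8% were called, 5.26% higher and 5.54% lower. The median difference of the 46 factors was 0.10, with 29 of them above 0, and the median over all named genes was −0.0028. The replicates of the 2 groups did not overlap for 25 of the 46 factors and for 4692 of the 12885 named genes, where chance gives 10%, so a lack of overlap does not single out the factors called.

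The number of factors called moved with the replicates and arrays used. It was 0 without NCE replicate 2 and 0 without NCE replicate 3 by limma, with 8 higher and 9 lower, and 8 higher and 8 lower, at an unadjusted p below 0.05. Over all 22328 probes, 4334 and 4468 passed that unadjusted threshold. Of the named genes, 2.98% and 3.03% were called in these 2 fits. It was 1 higher and 2 lower without NCE replicate 1 (6.6% of named genes called), 2 and 1 without CYGB+ replicate 2 (9.21%), 0 and 2 without CYGB+ replicate 3 (7.11%), and 3 and 5 without CYGB+ replicate 1 (13%). Without the array that stood apart most, 7 factors were higher and 8 lower, with 22.4% of named genes called, and 7 of the 9 factors above were among the 15. Without the 3 arrays that stood apart, 9 were higher and 7 lower, with 26.5% of named genes called, and all 9 were among the 16. Leaving out these arrays was chosen after seeing the data. The sign of the difference of each of the 9 factors was the same in all 20 alternatives run. In many of these it could not change. The difference itself is unaltered with no filter, with probes well above background on all 15 arrays, with the methods' t-test and with the replicate block. With 1 replicate left out the sign was fixed too, as the replicates of these factors did not overlap between groups.

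The factors called also moved with the signal, scaling and probes used. With the processed signal UQCC1 alone stayed called (2.17% of factors and 9.1% of named genes), and with the deposited table UQCC1 and ATPAF2 did (4.44% and 9.7%). With 75th percentile scaling, UQCC1, NUBPL, UQCC3 and COA4 stayed called (8.7% and 8.43%). NDUFAF1 was lost with an offset of 10 (limma adjusted p = 0.103) and with probes well above background on all 15 arrays (0.0648), and COA4 without the filter (0.0782). With the mean over a gene's probes, NDUFAF6 was at −0.26 and lost its call (0.119), and UQCC1 was at −0.36 and kept it (0.0422).

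**Figure D1:**
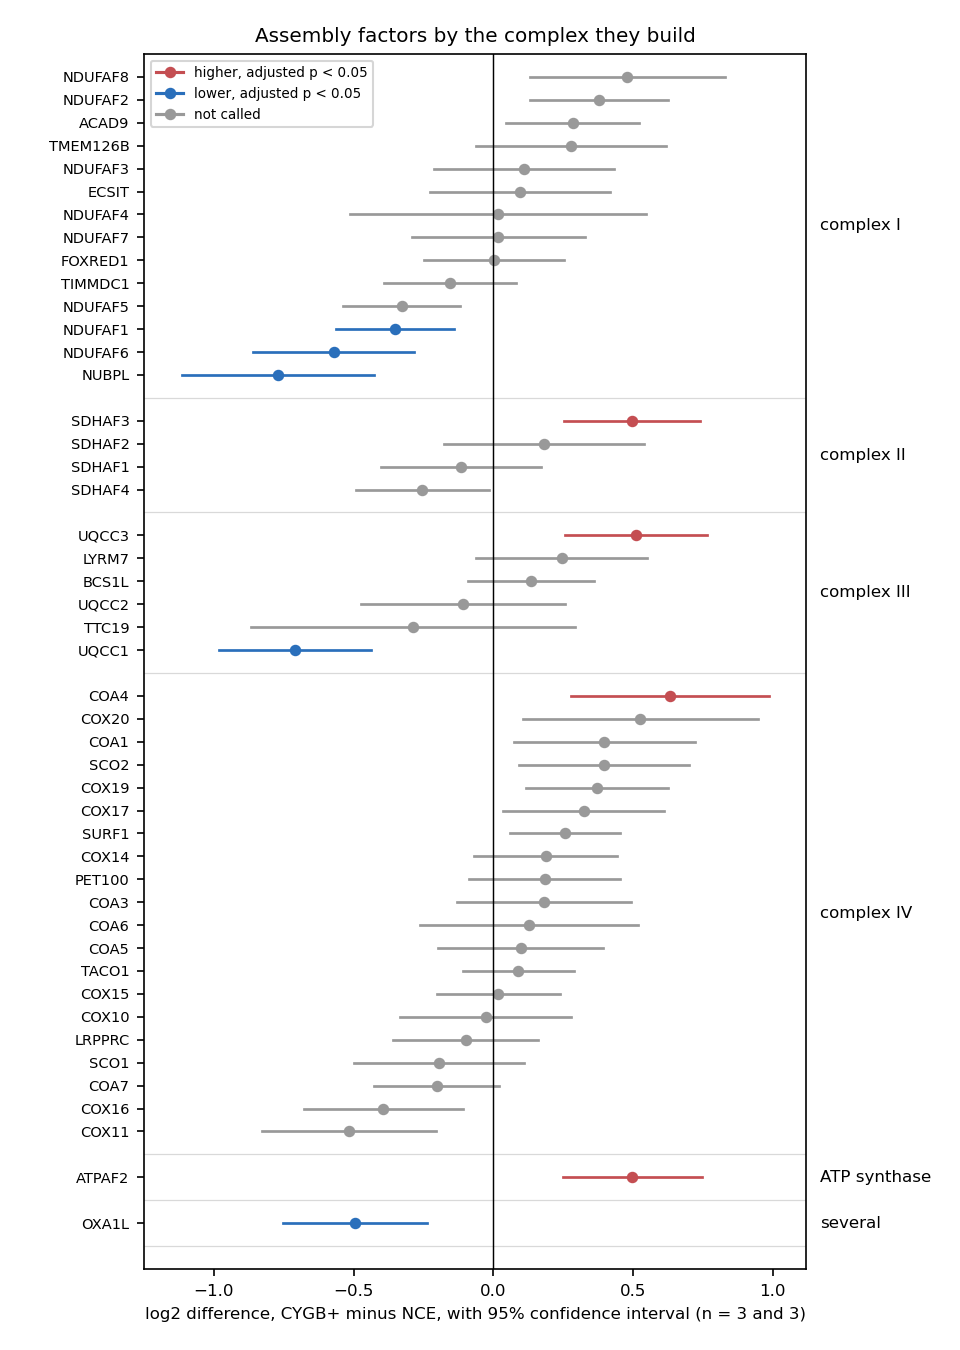
Log2 difference (CYGB+ minus NCE, x axis) of the 46 assembly factors tested, grouped by complex, with 95% confidence intervals from limma (n = 3 and 3 biological replicates). Red and blue mark the 4 factors called higher and the 5 called lower, and differences range from −0.77 (NUBPL) to 0.63 (COA4).

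Complex I takes electrons from NADH, and all 14 of its assembly factors in the list were tested. NUBPL, NDUFAF6 and NDUFAF1 were lower in the arrays labelled CYGB+, 0 factors were higher, and 11 were not called. NUBPL, which serves the iron-sulphur clusters of complex I, had levels of 11.03, 10.75 and 10.91 in NCE replicates 1 to 3 and 10.41, 10.01 and 9.95 in CYGB+ replicates 1 to 3. Every CYGB+ replicate lay below every NCE replicate, and NUBPL was 1.71-fold lower (difference −0.77 ± 0.15 SE; limma adjusted p = 0.0218). The call held without CYGB+ replicate 1 (limma adjusted p = 0.0102) and was lost without NCE replicate 1 (0.0658), 2 (0.0627) or 3 (0.0865) and without CYGB+ replicate 2 (0.0562) or 3 (0.0591).

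NDUFAF6, needed for the early steps of complex I assembly, was at 9.63, 10.04 and 9.88 in NCE and at 9.21, 9.27 and 9.36 in CYGB+. The groups did not overlap, NCE replicate 1 lay nearest to CYGB+, and the difference was −0.57 ± 0.12 (SE; limma adjusted p = 0.0303). This call held without NCE replicate 1 (0.0329) and was lost without NCE replicate 2 (0.114) or 3 (0.115) and without CYGB+ replicate 1 (0.0553), 2 (0.0681) or 3 (0.0605). NDUFAF1 belongs to the complex that helps to build the membrane arm. Its level was 10.50, 10.67 and 10.57 in NCE and 10.24, 10.18 and 10.26 in CYGB+. The groups did not overlap, and NDUFAF1 was 1.28-fold lower (difference −0.35 ± 0.09 SE; limma adjusted p = 0.0495, and 0.0712 with the replicate block). That call was lost without each of NCE replicates 1 (0.0846), 2 (0.19) and 3 (0.163) and CYGB+ replicates 1 (0.0648), 2 (0.105) and 3 (0.0952).

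The other 11 complex I factors had differences between −0.33 (NDUFAF5) and 0.48 (NDUFAF8), and 9 of the 14 lay above 0. NDUFAF5 and NDUFAF8 act together, and neither passed the test (limma adjusted p = 0.0601 and 0.0854). NDUFAF5 was called lower without the filter, with the mean over a gene's probes and without the array that stood apart most. It was at −0.33 with slide as a block (limma adjusted p = 0.438). NDUFAF8 was called higher with the replicate block. With slide as a block NDUFAF8 was at −0.30 (limma adjusted p = 0.861), and within slide 2 at −0.30. Its second probe was at 0.11 in both. TMEM126B, a partner of NDUFAF1, is named because it was the 1 factor called with slide as a block, and was chosen after its values were seen. Its level was 10.80, 11.33 and 11.05 in NCE and 11.42, 11.24 and 11.35 in CYGB+, and the groups overlapped. The difference was 0.28 (limma adjusted p = 0.264), and 0.69 with slide as a block (0.0417). That value rests on the 1 NCE array on slide 2, which read 10.58, below the 8 NCE arrays on slide 1 (10.86 to 11.36). Within slide 2 the difference was 0.75, not called (0.264).

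Complex II, succinate dehydrogenase, has 4 assembly factors in the list. SDHAF3, which helps the iron-sulphur subunit to mature, was at 8.61, 8.76 and 8.63 in NCE and at 9.25, 9.02 and 9.23 in CYGB+. Every CYGB+ replicate was above every NCE replicate, and SDHAF3 was 1.41-fold higher (difference 0.50 ± 0.10 SE; limma adjusted p = 0.0278). SDHAF1, SDHAF2 and SDHAF4 were not called, with differences of −0.12, 0.18 and −0.25. The SDHAF3 call held without CYGB+ replicate 1 (0.0477) or 2 (0.0316), and was lost without NCE replicate 1 (0.084), 2 (0.0805) or 3 (0.113) and without CYGB+ replicate 3 (0.0769). Without the array that stood apart most, the difference was 0.37 (limma adjusted p = 0.0559).

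Complex III passes electrons from ubiquinol to cytochrome c, and of its 6 factors 1 was higher and 1 lower. UQCC1, a factor for newly made cytochrome b, was at 10.36, 10.28 and 10.30 in NCE and at 9.42, 9.80 and 9.59 in CYGB+. The NCE replicates lay close together, all above the CYGB+ replicates, and the difference was −0.71 ± 0.12 (SE; limma adjusted p = 0.0136). The call was lost without NCE replicate 2 (0.0624) or 3 (0.0611) and held without each of the other 4 replicates (0.0186 to 0.0482). UQCC3, which also acts on the cytochrome b intermediate, was at 12.37, 12.13 and 12.14 in NCE and at 12.68, 12.85 and 12.65 in CYGB+. The groups did not overlap, and the difference was 0.51 ± 0.11 (SE; limma adjusted p = 0.029). This call held without NCE replicate 1 (0.0428) or CYGB+ replicate 1 (0.0398), and was lost without NCE replicate 2 (0.121) or 3 (0.118) and without CYGB+ replicate 2 (0.0668) or 3 (0.0572). BCS1L, UQCC2, TTC19 and LYRM7 were not called, with differences from −0.29 to 0.24. TTC19 was at 9.24 in CYGB+ replicate 1 and at 10.01 to 10.25 in the other 5 replicates of both groups.

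Promoter sequences are shown for NUBPL, UQCC1 and SDHAF3. These 3 had the largest differences among the eligible called factors whose 250 bases before the start reach into no coding gene. NDUFAF6 (difference −0.57) was not eligible, through a separate restriction on the genes shown, whatever its window held. Its absence therefore says nothing of that window. The choice of the 3 factors was made after their values were seen. The bases run 5′ to 3′ up to the gene's start in RefSeq (GRCh38.p14), lie upstream of the gene, and have the letters of a searched motif in capitals.
NUBPL, chr14:31561154-31561403, plus strand: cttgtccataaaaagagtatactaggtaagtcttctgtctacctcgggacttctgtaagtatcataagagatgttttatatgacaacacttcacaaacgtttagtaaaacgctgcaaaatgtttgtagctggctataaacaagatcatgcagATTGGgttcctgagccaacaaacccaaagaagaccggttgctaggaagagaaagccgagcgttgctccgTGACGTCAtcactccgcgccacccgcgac
UQCC1, chr20:35411974-35412223, minus strand: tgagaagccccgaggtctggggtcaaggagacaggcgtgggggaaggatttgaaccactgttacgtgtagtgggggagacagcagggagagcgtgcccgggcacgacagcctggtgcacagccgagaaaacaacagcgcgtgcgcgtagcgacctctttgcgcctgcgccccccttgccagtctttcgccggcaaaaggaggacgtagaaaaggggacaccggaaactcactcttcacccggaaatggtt
SDHAF3, chr7:97117448-97117697, plus strand: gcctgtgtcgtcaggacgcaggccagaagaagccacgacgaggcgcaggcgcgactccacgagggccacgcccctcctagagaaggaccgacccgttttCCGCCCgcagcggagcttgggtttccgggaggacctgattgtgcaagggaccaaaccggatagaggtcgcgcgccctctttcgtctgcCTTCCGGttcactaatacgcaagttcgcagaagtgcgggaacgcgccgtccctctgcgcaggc
The search read both strands for 7 motifs, namely CGCATGCG (NRF1), CCGGAAG (ETS family), TGACGTCA (CREB family), AAGATGGC (YY1), GGGCGG (SP1), CCAAT (NF-Y) and CACGTG (E-box), with 0 overlapping matches in these sequences. NUBPL held TGACGTCA from 29 bases before the start and CCAAT, on the opposite strand, from 98 bases before it. SDHAF3 held CCGGAAG and GGGCGG on the opposite strand, from 63 and 151 bases before the start, and UQCC1 held none of the 7.

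Of the 49 factors, 43 had a promoter entry. CCGGAAG was in 27.9% of these and in 8.52% of all 35116 promoters. GGGCGG was in 58.1% and 42.6%, CCAAT in 34.9% and 32%, and CACGTG in 11.6% and 6.34%. CGCATGCG was in 4.65% and 1.73%, TGACGTCA in 4.65% and 1.65%, and AAGATGGC in 0% and 1.36%. Each factor was read only in its first entry, while the 35116 are all entries, of genes tested here or not. The shares thus come from unlike sets, and their difference was not tested. A match is a run of letters in this window and says nothing of binding.

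Complex IV, cytochrome c oxidase, had the most factors in the list, with 20 of 21 tested, and COA4 was the 1 factor called. COA4, a small protein of the intermembrane space, was at 11.20, 11.52 and 11.47 in NCE and at 12.28, 11.79 and 12.02 in CYGB+. The groups did not overlap, CYGB+ replicate 1 was the highest, and COA4 was 1.55-fold higher (difference 0.63 ± 0.15 SE; limma adjusted p = 0.0411, and 0.061 with the replicate block). The call held without CYGB+ replicate 2 (0.0364) and was lost without NCE replicate 1 (0.11), 2 (0.105) or 3 (0.115) and without CYGB+ replicate 1 (0.0629) or 3 (0.09). Without the array that stood apart most, the difference was 0.43 (limma adjusted p = 0.0523), and without the 3 that stood apart it was 0.42 (0.0246).

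The other 19 complex IV factors had differences from −0.52 (COX11) to 0.53 (COX20), and 14 of the 20 lay above 0, with a median of 0.16. COX11 and COX17, which handle copper for the oxidase, were at −0.52 and 0.32. SCO1 and SCO2, also copper proteins, were at −0.20 and 0.40. COX10 and COX15, enzymes of haem A synthesis, were at −0.03 and 0.02, and SURF1, which serves the haem A step, was at 0.26. LRPPRC and TACO1, which act on the messenger RNAs or translation of mitochondrially encoded subunits, were at −0.10 and 0.09. COX11 was nearest to the threshold of 0.05 without passing it (limma adjusted p = 0.05 as rounded). With the replicate block, COX11 was called lower and COX20 higher. COX11 was also called lower with probes well above background on all 15 arrays and without CYGB+ replicate 1. So it was without the 1, 3 or 5 arrays that stood apart. With slide as a block COX11 and COX20 were at −0.18 and 0.08 (limma adjusted p = 0.915 and 0.954), and within slide 2 at −0.21 and −0.01.

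Of the 3 ATP synthase factors, ATPAF2 was the 1 tested, a chaperone for the catalytic head of the enzyme. It was at 8.77, 8.61 and 8.64 in NCE and at 9.07, 9.32 and 9.11 in CYGB+, averaged over array repeats. On single arrays the groups overlapped, with 8.70 on the first array of CYGB+ replicate 1 and up to 8.85 in NCE. Every CYGB+ replicate was above every NCE replicate, and ATPAF2 was 1.41-fold higher (difference 0.50 ± 0.11 SE; limma adjusted p = 0.0292). The call held without CYGB+ replicate 1 (0.0298) and was lost without NCE replicate 1 (0.0569), 2 (0.122) or 3 (0.116) and without CYGB+ replicate 2 (0.0608) or 3 (0.0635). OXA1L, which inserts proteins into the inner membrane for several complexes, was at 9.97, 10.13 and 10.01 in NCE and at 9.37, 9.58 and 9.67 in CYGB+. Its groups did not overlap, and OXA1L was 1.41-fold lower (difference −0.50 ± 0.11 SE; limma adjusted p = 0.033). This call held without CYGB+ replicate 1 (0.0448) or 3 (0.0499), and was lost without NCE replicate 1 (0.0733), 2 (0.133) or 3 (0.111) and without CYGB+ replicate 2 (0.0624).

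**Figure D2:**
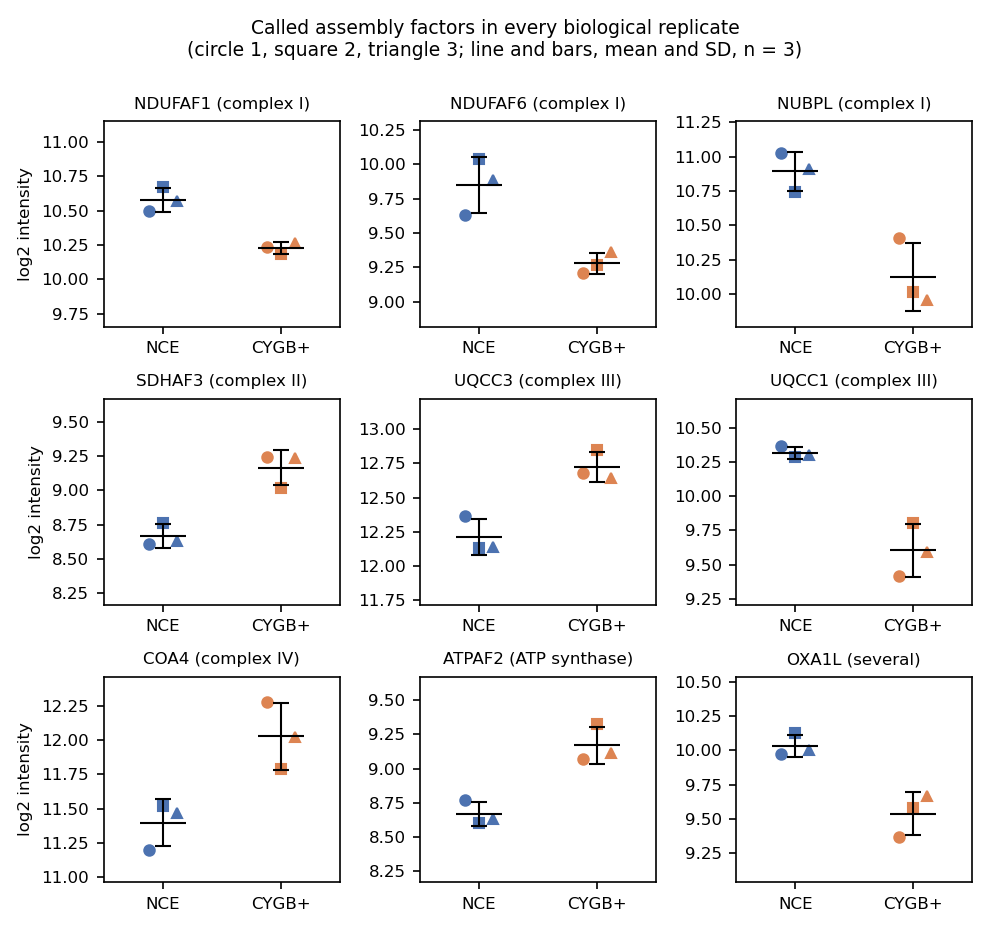
Log2 normalised intensity (y axis) of the 9 called factors in each biological replicate of NCE (blue) and CYGB+ (orange), with the group mean and SD (n = 3); symbols give the replicate number. The groups do not overlap in any of the 9 panels, with the smallest difference for NDUFAF1 (−0.35) and the largest for NUBPL (−0.77). Array repeats are averaged here, and single arrays of NDUFAF1, NDUFAF6, UQCC3, COA4 and ATPAF2 do overlap between the groups.

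With slide in the fit, the comparison of the groups rests mostly on the 1 NCE array on slide 2. With slide as a block, fitted on single arrays with the biological replicate as a random block, the 9 factors kept the sign of their difference and 0 of them was called (limma adjusted p = 0.209 to 0.93). In that fit 4.46% of the named genes and 1 of the 46 factors, TMEM126B, were called. There were 2 factors higher and 4 lower at an unadjusted p below 0.05, a threshold that 3151 of the 22328 probes passed. NUBPL was at −0.77 with and without slide. COA4, ATPAF2, SDHAF3 and UQCC3 were at 0.58, 0.45, 0.36 and 0.26 with slide, NDUFAF1, OXA1L and UQCC1 at −0.42, −0.39 and −0.53, and NDUFAF6 at −0.09. The sign was the same as without slide for 36 of the 46 factors. Slide itself was called for 3 of the 22328 probes and for 0 of the factors. The slide term also rests mostly on the 1 NCE array on slide 2, so these counts do not show that slide effects were small. Its estimates for the factors ran from −0.54 (NDUFAF6) to 0.87 (NDUFAF8).

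Within slide 2, its single NCE array was set against the 3 CYGB+ replicates, with the lone array assumed to vary like the CYGB+ group. The differences were −0.82 for NUBPL, −0.57 for UQCC1, −0.38 for both NDUFAF1 and OXA1L, and −0.05 for NDUFAF6. They were 0.66 for COA4, 0.42 for ATPAF2, 0.40 for SDHAF3 and 0.22 for UQCC3. With 1 array on the NCE side, these values say nothing about whether a call is stable.

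The NCE array on slide 2 is part of NCE replicate 1, so it entered the calls above. For NUBPL it read 10.95, next to 11.09 and 11.04 on the slide 1 arrays of the same replicate, above all CYGB+ arrays (9.63 to 10.62). For NDUFAF6 it read 9.33, next to 9.76 and 9.80, inside the range of the CYGB+ arrays (9.09 to 9.56). For UQCC3 it read 12.50, next to 12.29 and 12.30, inside the CYGB+ range of 12.45 to 12.88. The array lay nearer to the mean of the other NCE arrays than to the CYGB+ mean for 28 of the 46 factors and for 54.9% of named genes. Among those called, partly through this array, it did so for 7 of the 9 factors, all but NDUFAF6 and UQCC3, and for 84% of named genes.

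**Figure D3:**
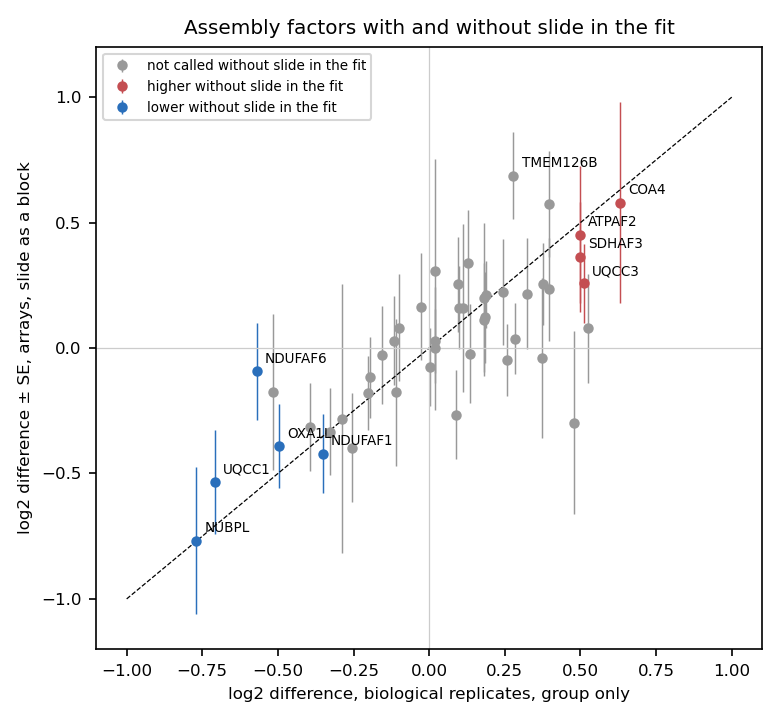
Log2 difference of the 46 factors in the fit of biological replicates (x axis) and in the fit of arrays with slide as a block (y axis, with SE); the dashed line marks equal values. The 9 called factors (red, blue) keep their sign. Of these, NUBPL, ATPAF2, COA4 and NDUFAF1 lie nearest to the line, and NDUFAF6 goes from −0.57 to −0.09.

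**Figure D4:**
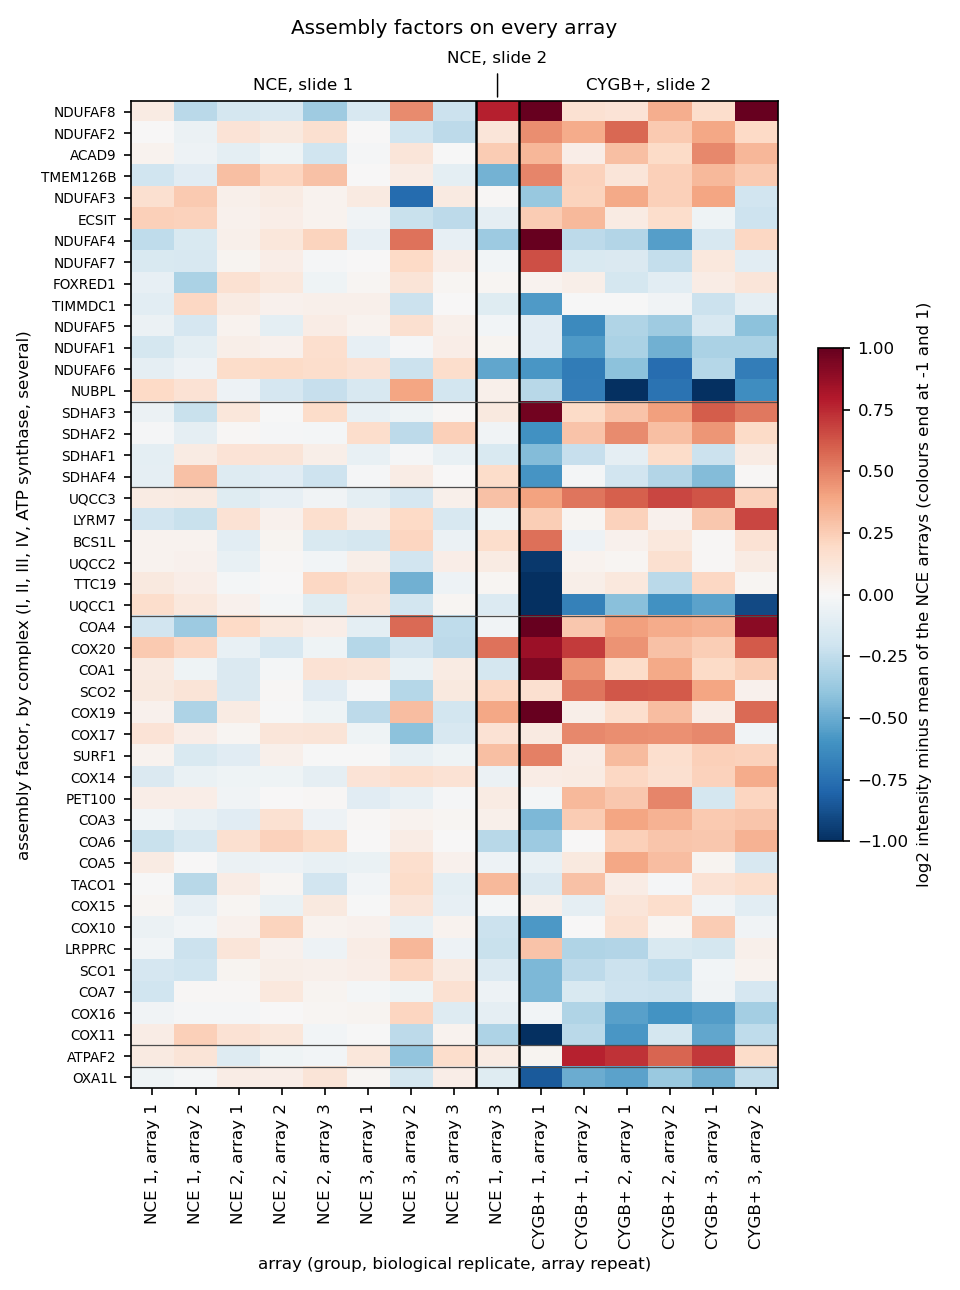
Each of the 46 factors, by complex, on each of the 15 arrays, as log2 intensity minus the mean of the NCE arrays (colours end at −1 and 1); vertical lines enclose the NCE array on slide 2. The first array of CYGB+ replicate 1, with a mean correlation of 0.933 with the other arrays, has colours that differ from those of the second array of that replicate for TTC19, NDUFAF4 and others.

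For 9 factors more than 1 probe passed the filter, and their signs differed for COX15, LRPPRC and NDUFAF6. The 2 probes each of ACAD9 (0.28 and 0.29), COX20 (0.50 and 0.53) and NDUFAF8 (0.39 and 0.48) gave close differences in the fit without slide. With slide as a block they were at 0.04 and 0.37, 0.25 and 0.08, and 0.11 and −0.30. Of the 3 probes for UQCC1, the brightest was at −0.71 and the other two, not called, at −0.33 and −0.03. The second NDUFAF6 probe was at 0.06, next to −0.57 for the brightest. LRPPRC had 1 of its 3 probes called higher (0.51, limma adjusted p = 0.0175) while its brightest was at −0.10. With slide as a block that called probe was at 0.44 and lost its call (limma adjusted p = 0.163). Whether these probes read different transcripts was not tested.

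The structural subunits that the factors put together were taken as a further list. Of 79 subunits, 78 were tested, with 9 higher and 4 lower in the arrays labelled CYGB+ (16.7%, next to 13.2% of all named genes) and a median difference of 0.12. In complex I, 4 of 37 subunits were higher and 1 lower. NDUFV2 and NDUFB1 were higher (0.91 and 0.90; limma adjusted p = 0.00425 and 0.00787), and NDUFV3 was lower (−0.71; 0.0077). NDUFA2 and NDUFB4, named after their values were seen, were the others (0.78 and 0.41). In complex II, SDHC, a membrane anchor of the enzyme, was lower (−0.55; limma adjusted p = 0.0119), and was at −0.04 (0.833) with the mean over its probes. In complex III, 0 of 9 subunits were called by limma.

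In complex IV, 3 of 10 subunits were higher, COX7C (1.19; limma adjusted p = 0.00825), COX8A (0.61; 0.0413, and 0.0563 with the replicate block) and, named after its values were seen, COX7B (0.59). In ATP synthase, 2 of 18 subunits were higher, ATP5MJ (0.71; limma adjusted p = 0.0213) and ATP5F1B (0.53; 0.0445), and 2 were lower, ATP5PF (−0.79; 0.00732) and ATP5PO (−0.69; 0.0151). With slide as a block, 5 of the 13 stayed called, NDUFV2, NDUFA2, NDUFB1, SDHC and ATP5PF (limma adjusted p = 0.00105, 0.0133, 0.039, 0.0425 and 0.0138). That fit rests mostly on 1 NCE array, so it does not show that these calls are free of slide. Within slide 2 they were at 0.86, 0.84, 0.74, −0.73 and −0.82, and none was called (0.235, 0.256, 0.291, 0.264 and 0.264). The other 8 were not called with slide as a block. COX7C was at 0.65 (0.239), ATP5F1B at 0.51 (0.15), COX8A at 0.45 (0.356), COX7B at 0.36 (0.158), ATP5MJ at 0.34 (0.691) and NDUFB4 at 0.10 (0.952), with ATP5PO at −0.47 (0.137) and NDUFV3 at −0.30 (0.226). Without NCE replicate 2 or 3, SDHC (0.0657 and 0.0642), ATP5PO (0.072 and 0.0703) and ATP5MJ (0.0879 and 0.0871) lost their calls, ATP5MJ also without CYGB+ replicate 2 (0.0528). COX8A and ATP5F1B kept theirs without CYGB+ replicate 1, and lost them without each of NCE replicates 1 to 3 and CYGB+ replicates 2 and 3 (0.0542 to 0.153 and 0.09 to 0.135). COX7B lost its call without NCE replicate 2 (0.0601) or 3 (0.0583). NDUFB4 lost it without each of NCE replicates 1 (0.0569), 2 (0.147) and 3 (0.139) and CYGB+ replicates 1 (0.056), 2 (0.0806) and 3 (0.0701), and was at 0.26 (0.208) without the array that stood apart most. With the processed signal, SDHC, NDUFB4, COX7B, COX8A and ATP5F1B lost their calls. With the deposited table, SDHC, NDUFB4, ATP5F1B and ATP5PO did, and with 75th percentile scaling SDHC and NDUFB4. An offset of 10 ended the calls of ATP5F1B (0.0594) and NDUFB4 (0.0757), and no filter those of COX8A (0.0765) and ATP5F1B (0.0723). With the methods' t-test NDUFV2, NDUFA2, NDUFV3, SDHC, COX7B and ATP5PF stayed called and the other 7 did not.

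The median differences of factors and subunits were 0.02 and 0.14 for complex I, 0.03 and 0.01 for complex II, 0.01 and 0.12 for complex III, and 0.16 and 0.13 for complex IV. The difference between factors and subunits was not tested. Of 16 further genes with a part in assembly, 13 were tested and 1 was called, COX7A2L, a factor for supercomplexes, named after its values were seen. Its difference was 0.39 (limma adjusted p = 0.0472, and 0.0568 with the replicate block), and 0.17 with slide as a block (0.903). Without the 1, 3 or 5 arrays that stood apart, the difference was 0.29, 0.26 or 0.25, and the call was lost (0.183, 0.118 and 0.137). So it was with the processed signal (0.182), 75th percentile scaling (0.114), an offset of 10 (0.0912), probes well above background on all 15 arrays (0.057), the deposited table (0.125) and the methods' t-test (0.0887). The call held without CYGB+ replicate 1 (0.0495) and was lost without NCE replicate 1 (0.124), 2 (0.146) or 3 (0.156) and without CYGB+ replicate 2 (0.0643) or 3 (0.108).

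**Figure D5:**
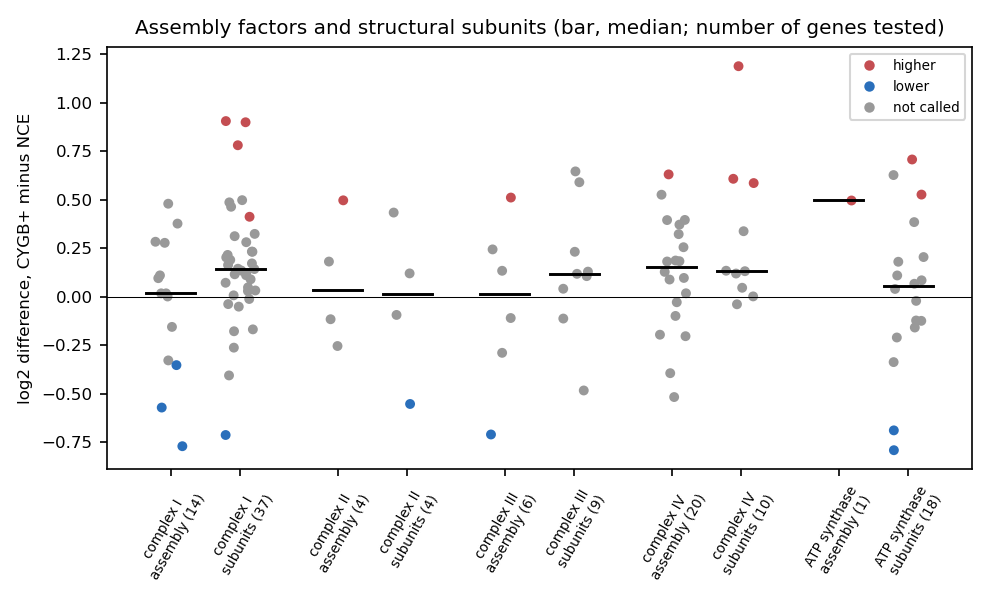
Log2 difference (CYGB+ minus NCE, y axis) of each assembly factor and each structural subunit tested, by complex, with the median as a bar; red and blue mark genes called higher and lower. The 3 called complex I factors lie below 0, down to −0.77, and of the 5 called complex I subunits 4 lie above 0, up to 0.91, and 1 below.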

How the data were processed

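RNA (50 ng per labelling) from PE/CA-PJ41 cells labelled NCE and CYGB+ was hybridised to Agilent SurePrint G3 arrays. Per the file headers, spot intensity was extracted with Agilent Feature Extraction 10.7.3.1 under a protocol for 2 colours. The labels name Cy3 for every sample, so the green channel was used; the study's methods also name Cy5 for control cells, and the red channel was not used here. The processed signal carries a dye normalisation with the red channel, so the median spot intensity was taken, with the median local background (in place of the planned mean signal). Background was corrected by normexp (offset 50), outlier spots were left out (0.608% to 1.8% per array), and non-control spots were quantile normalised. Spots of a probe, then array repeats of a biological replicate, were averaged. Of 42405 probes, 22328 were well above background on at least 6 of 15 arrays. Of 27310 probes with a RefSeq accession, 93.09% matched a gene.

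CYGB+ was compared with NCE by limma 3.58.1 (lmFit, eBayes) in R 4.3.3, with Benjamini-Hochberg adjustment over all probes tested and a threshold of 0.05. The code was tested on simulated data. Of the immune markers, 1 and the sum of their levels are not reported here. The members and lists were chosen with earlier results of these data known. Values in every replicate are given for up to 3 called factors per complex and direction with the largest differences, and up to 2 called subunits per complex and direction are named. Replicate numbers come from the labels. Deviations from the group means correlated at 0.207, 0.229 and 0.3 for samples with the same number, and at −0.495 to 0.287 for different numbers. These ranges overlap, so they do not settle whether the numbers pair the samples. The main fit did not pair them, and a fit with the replicate block was an alternative. The other alternatives changed the signal, scaling, offset, filter, test, slide term, replicates or arrays used, and probe per gene.

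The table of values deposited by the authors was an alternative. It has 15040 entries, of which 15031 matched a probe name. Its scale is not stated. Differences between its columns had slopes of 0.585 to 0.704 against log2 differences of the processed signal (correlations 0.926 to 0.986), so the deposited values were taken as natural log and converted. The values lie centred per probe; how the centre was chosen and the normalisation between arrays remain unknown, and the direction was taken from the same comparison. The column medians, by array repeat, were −0.161, −0.015 and 0.11 (NCE replicate 1), −0.04, 0.039 and 0.086 (NCE 2), −0.049, 0.182 and −0.022 (NCE 3), 0.143 and 0.001 (CYGB+ 1), −0.01 and −0.048 (CYGB+ 2), and −0.022 and 0.161 (CYGB+ 3).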

Additional observations from a re-analysis of the deposited data

Results flagged for a closer look

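In the mean correlation with the other arrays, 1 array of each group lay far from the rest of its group. It was 0.9333 for the first array repeat of CYGB+ replicate 1, with the nearest CYGB+ array at 0.971, and 0.9666 for the second array repeat of NCE replicate 3, with the nearest NCE array at 0.9755. The same rule was applied to the levels of the 9 called factors in each group. Of the 20 sets of values examined (10 measures in 2 groups), these 2 held such an array, and chance gives about 1 in 20.

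The red channel, which the comparisons do not use, held signal on every array although the labels name Cy3 alone. Between 55.62% and 61.38% of its spots were well above background. What it holds was not tested.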

How the results depend on the processing

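The 4 factors higher and 5 lower became 0 and 1 with the processed signal, 2 and 2 with 75th percentile scaling, 1 and 1 with the deposited table (45 factors), 1 and 0 with slide as a block, and 0 and 0 within slide 2, where 1 NCE array says nothing about stability. By the methods' t-test, 5370 of the 22328 probes were at an unadjusted p below 0.05, with 10 factors higher and 10 lower. After Benjamini-Hochberg it gave 0 and 0 factors. They were 7 and 8 without the array that stood apart most, 9 and 7 without the 3, and 8 and 7 without the 5 that correlated least, all chosen after seeing the data. Leaving out 1 biological replicate gave 0 to 3 higher and 0 to 5 lower. The replicate block gave 5 and 5, with 15.5% of named genes called. It ended the calls of NDUFAF1, COA4, COX8A and COX7A2L and added COX11, COX20 and NDUFAF8. It changed no other call of a factor or named subunit. Of the 9 factors, 8 stayed called with offset 10 and on all 15 arrays (NDUFAF1 lost), with no filter (COA4 lost) and with the mean over a gene's probes (NDUFAF6 lost).

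Over all probes, 1175 were higher and 1237 lower. They were 947 and 905 with the processed signal, 789 and 715 with 75th percentile scaling, 764 and 680 with the deposited table (fewer probes), 293 and 289 with the methods' t-test (50 and 56 also past 2-fold), 320 and 445 with slide as a block, and 3 and 2 within slide 2, where 2359 were below an unadjusted p of 0.05. They were 1979 and 2144 without the array that stood apart most, 2450 and 2597 without the 3, and 2286 and 2385 without the 5. The replicate block gave 1386 higher and 1526 lower. Leaving out 1 replicate gave 232 to 1205 higher and 270 to 1187 lower. Of the calls, 48.7% were higher, 41.8% in the fit with slide (within slide 2, 60%). Where no samples or probes were lost, the cause was not tested.

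None of the 9 called factors and 10 subunits named by rule changed sign in an alternative. No sign could change in the alternatives that leave the difference itself unaltered. Nor could it with 1 replicate left out, as the replicates of these genes did not overlap between groups. With slide as a block 36 of all 46 factors kept their sign. KRT6A was at 0.006 within slide 2. CYGB was at 0.0467 with the deposited table, and between −0.329 and 0.2013 with 1 replicate left out, with 0.0084 without NCE replicate 2 and 0.2013 without CYGB+ replicate 1. Signal over background left COX18 and ATPAF1 untested. Each group had 3 replicates, CYGB+ came from 1 clone, and 1 NCE array lay on the slide of the CYGB+ arrays. Group cannot be told apart from clone or from slide for any of these differences.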
